A study of Mus musculus with 8 samples.

Results

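Resting double-positive (DP) thymocyte-like cells were examined in single-cell RNA of the ascending thoracic aorta, its first segment after the heart, from 3 aged wildtype mice of 81, 84 and 88 weeks. The cells of each animal carried a hashtag, a barcoded antibody that marks the animal, and were pooled. The 8 deposited samples are 4 gene expression and 4 hashtag libraries of that pool, which the count matrix does not keep apart, so the animals and not the libraries are the units here. All groups share the genotype, the tissue and the digestion for 60 min at 37 °C, and no young animals are in the files. Members were chosen by raw counts of UMIs (unique molecular identifiers, which count captured molecules). A member had at least 500 genes, at least 1000 UMIs and under 15% mitochondrial UMIs. It had at least 2 UMIs of Cd3d, Cd3e and Cd3g together, at least 2 of Rag1, at least 1 of Cd8a and Cd8b1 together, and at most 1 of the cycle genes Mki67, Top2a, Ccnb2, Mcm3 and Hells together. Members also had under 1% smooth muscle, under 0.3% Dcn and under 1% haemoglobin UMIs, and at most 1 UMI of Cdh5, Kdr and Cldn5. This left 790 cells of 26916 barcodes, or 6.99% (95% exact interval 6.53 to 7.48) of the 11301 barcodes past the limits on genes, depth and mitochondrial UMIs.

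T cells mature in the thymus. Early thymocytes rearrange the T cell receptor beta chain, divide strongly while they gain Cd4 and Cd8, and then stop dividing as DP cells. At rest they express the recombinase Rag1 and Rag2 again and rearrange the alpha chain, which deletes the delta chain genes that lie inside the alpha locus. DP cells whose receptor binds peptide on the MHC of cortical epithelium receive a survival signal, switch on Cd69, Cd5 and Egr1, and later raise Bcl2 and Il7r; the others die. Where the cells lay before digestion was not tested.

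The following oligonucleotides are shown because they alone assign each member to an animal. They are the hashtag sequences of the deposited reference table, each read 5′ to 3′.
TotalSeq-B0301, 81 weeks: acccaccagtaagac
TotalSeq-B0302, 84 weeks: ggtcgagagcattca
TotalSeq-B0303, 88 weeks: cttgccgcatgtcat

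Members were distributed unevenly over these hashtags. Of the 790 members, 7 carried hashtag 1 alone, 517 hashtag 2 alone and 123 hashtag 3 alone, while 75 carried none and 68 carried more than 1. They made up 1.25% (0.503 to 2.55) of the 561 cells with hashtag 1, 18.9% (17.4 to 20.4) of the 2738 with hashtag 2 and 11.2% (9.43 to 13.3) of the 1094 with hashtag 3. They were 1.19% (0.934 to 1.48) of the 6324 cells without a hashtag and 11.6% (9.16 to 14.5) of the 584 cells with more than 1. With hashtags required to reach 2 times the cutoff (strong hashtags) the shares were 1.15%, 11.5% and 11.5%, so the difference between 84 and 88 weeks was present only at the lower cutoff. The member share at 81 weeks stayed lowest under both cutoffs. Intervals cover counting error only, and with 1 animal per hashtag the shares were not tested. Exactly 1 hashtag was carried by 81.9% (79.0 to 84.5) of members, against 85.0% (82.2 to 87.4) of dividing thymocyte-like, 78.0% (75.5 to 80.4) of endothelial-like and 14.5% (13.4 to 15.7) of smooth muscle-like cells. The hashtag count of a member was a median 1.55 times its cutoff, and 301 of the 647 members with exactly 1 hashtag were under 1.5 times.

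**Figure D1:**
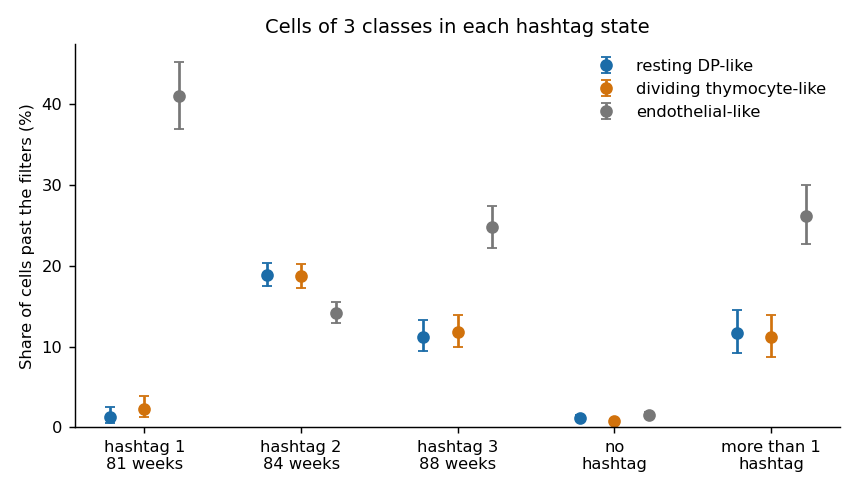
Share (%) of the cells past the filters that were resting DP-like (left point of each group), dividing thymocyte-like or endothelial-like, in each hashtag state, with 95% exact binomial intervals. The resting share is 1.25% with hashtag 1, 18.9% with hashtag 2 and 11.2% with hashtag 3, and the dividing share is 2.32%, 18.7% and 11.8%.

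The reference classes were built from counts in the same way. Dividing thymocyte-like cells (771) passed the same limits on quality, T cell and wall genes but had at least 5 cycle UMIs and any Rag1. Another rule asked for no Rag1, at most 1 cycle UMI and at least 2 UMIs of Ccr7, Il7r, Klf2 and S1pr1. It held 28 cells, of which 16 had at least 2 UMIs of natural killer (14) or gamma-delta T cell (9) markers. Ccr7, the receptor that draws selected thymocytes to the medulla, was found in 1 of them. They are therefore called Rag1-negative T cells, not mature thymocytes. Endothelial-like cells (1140), which should lack thymocyte genes, and smooth muscle-like cells (3654) give the level that free RNA or attached cells can produce.

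Members held less RNA than either lymphoid class. Their median was 2914.5 UMIs (range 1210 to 35266) and 1356 genes, against 6407 UMIs in dividing, 4969 in Rag1-negative T and 4216.5 in endothelial-like cells. Their mitochondrial share, a median 12.9%, was near the limit of 15%, against 10.0% in dividing and 10.1% in Rag1-negative T cells. Only 86 members were under 10%. The 196 members at 14 to 15% had a median 2692.5 UMIs, and the 195 barcodes at 15 to 16% that met every other limit had 2481. At the Rag1 limit 51 members had 2 UMIs and 34 excluded cells had 1. At the cycle limit 131 members had 1 UMI and 24 excluded cells had 2. Scrublet, a method that simulates doublets, called 3 members as doublets.

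The transcripts of the given markers were present. Rag1, which cuts DNA at receptor gene segments, was required and had a median of 8 UMIs per member (2 to 40). Cd4, which no limit used, was detected in 80.5% (77.6 to 83.2) of members. Cd8b1 was found in 98.7% and Cd8a in 94.1%, but at least 1 UMI of these genes together was required. Ccr9, the receptor for the thymic chemokine Ccl25, was detected in 90.3%, and Arl5c, a small GTPase gene, in 57.5%. Of the 5 genes given as markers, 340 members had all 5, 337 had 4, 99 had 3 and 14 had 2. The limits fixed Rag1 and largely Cd8b1 in these counts. Dntt, the polymerase that adds bases at receptor junctions, was detected in 91.5% and Rag2 in 41.3%. The early genes Il2ra, Kit and Ptcra were found in 2.03%, 0.127% and 8.35%. Il7r was found in 0.886% and Ccr7 in 0 of 790. That count allows up to 0.466% of cells with a UMI at this depth and sets no limit on cells that express Ccr7. Cells are not replicates, and these shares describe 1 pool.

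Thinning every cell to 1000 UMIs removes the difference in depth, and every member was deep enough to be thinned. Rag1 was then detected in 90.8% of members, 49.4% of dividing, 0% of Rag1-negative T and 10.5% of endothelial-like cells, but Rag1 defined the members. Cd4 was detected in 47.8%, 25.7%, 0% and 2.81% of these classes and Ccr9 in 63.7%, 24.6%, 28.6% and 6.05%. Arl5c was detected in 25.3%, 6.61%, 0% and 1.67%. Dntt gave 61.0%, 47.9%, 7.14% and 5.88%, and Aqp11, a further DP marker, 42.7%, 30.6%, 0% and 3.25%. Cd24a, from the same list of DP markers, went the other way between members and dividing cells (7.09%, 9.86%, 7.14% and 2.37%). Each of these shares of members was above that in endothelial-like cells. Cd69 gave 1.52%, 0.778%, 7.14% and 0.526%, and Bcl2 2.15%, 3.24%, 42.9% and 3.42%. The Bcl2 share of members was below that of endothelial-like and smooth muscle-like cells (7.66%), so over all members it was not separated from background. Wall cells may express Bcl2 themselves, which was not tested. The Cd69 share of members was above that of endothelial-like cells but low. Before thinning, Cd69 was found in 5.19% of members and 1.32% of endothelial-like cells, and Cd4 in 80.5% and 9.65%.

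**Figure D2:**
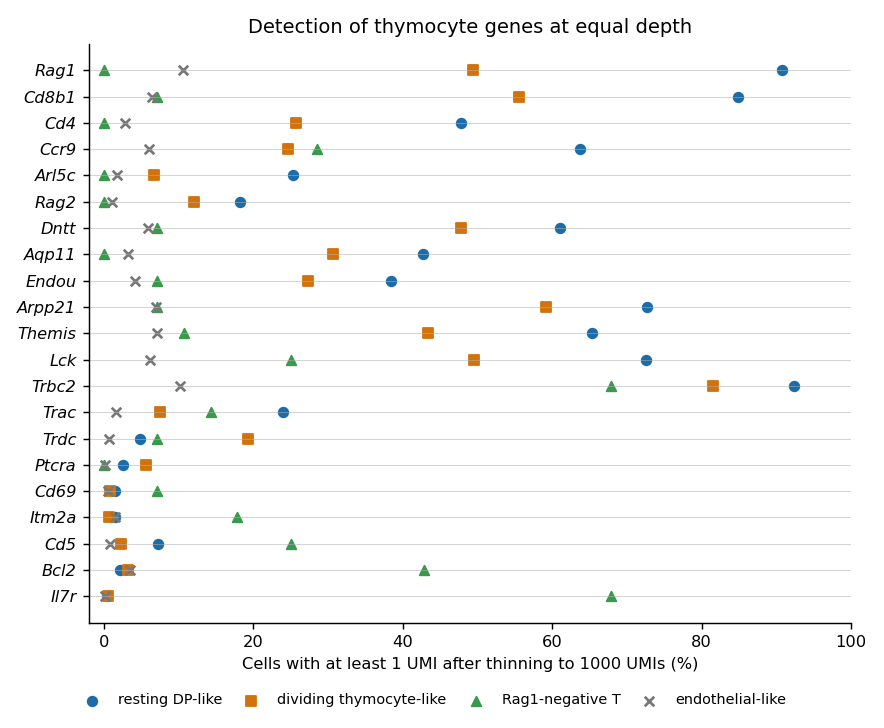
Share of cells (%) with at least 1 UMI of each gene after thinning every cell to 1000 UMIs, for 790 resting DP-like, 771 dividing thymocyte-like, 28 Rag1-negative T and 1140 endothelial-like cells. Cd4, Ccr9 and Arl5c are higher in resting than in dividing cells, while Bcl2 and Il7r are highest in Rag1-negative T cells.

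On the GRCm38.p6 assembly Rag1 and Rag2 are neighbours (chr2:101638252-101649532 and chr2:101624712-101632528). Trdc (chr14:54142851-54146108) precedes Trac (chr14:54220521-54224198) in the alpha and delta receptor locus.

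Receptor transcripts were those of alpha and beta chains. Trbc2 was detected in 99.0% and Trbc1 in 78.1% of members, Trac in 48.7% (45.2 to 52.3) and Trdc in 10.1% (8.11 to 12.4). Variable alpha segments (Trav) made up 177 CPM (UMIs per 1000000 UMIs) in members, over 56 of the 128 segments in the files, against 67.0 in dividing and 10.6 in endothelial-like cells. At least 1 Trav UMI was present in 36.1% of members. Beta variable segments (Trbv) gave 212 CPM in members and 139 in dividing cells, and delta variable segments (Trdv) 18.2 and 51.9. Thus the alpha segments and Trac were higher and the delta segments lower in resting than in dividing cells. These sums are over cells and were not tested.

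Resting cells were compared with dividing cells on UMI sums per hashtag, with the hashtag as a block (edgeR's quasi-likelihood test, where calls took an adjusted p below 0.05 and a log2 change of at least 1 either way). The sums were 19875, 1631732 and 410430 UMIs in resting cells of 81, 84 and 88 weeks, against 91259, 3846670 and 939083 in dividing cells. Of 5259 genes tested that no limit used, 356 were higher (6.77%) and 750 lower (14.3%) in resting cells, 21.0% either way. Without the 84-week set 176 were higher and 383 lower, and without the 88-week set 181 and 418. The median log2 change over all genes was -0.02. Genes that vary with Rag1 or the cycle are not independent of how the classes were cut, and p-values measure the spread between 3 hashtag sets from 1 pool.

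Of 21 tested genes for co-receptors and proximal signalling, 7 were higher and 0 lower (median log2 change 0.78), beside 6.77% and 14.3% of all genes. The 7 include the given marker Cd4, and Cd5, which is counted again among the selection genes. Ccr9, Cd4 and Arl5c had been given as markers, so their values are a description. Ccr9 had 1107, 1142 and 1053 CPM in resting cells of 81, 84 and 88 weeks, against 164, 290 and 267 CPM in dividing cells. Cd4 had 654, 674 and 602 CPM, against 164, 229 and 218 CPM, and Arl5c 403, 324 and 356 CPM, against 76.7, 83.4 and 70.3 CPM. In each of these genes every resting set lay above every dividing set. Txk, a kinase of the Tec family that acts downstream of the receptor, averaged 227 ± 23.0 CPM in resting cells and 39.5 ± 15.3 CPM in dividing cells (SD, n = 3 each). The log2 change of Txk was 2.27 ± 0.29 (SE; edgeR quasi-likelihood, adjusted p = 1.1e-06). Tespa1, which organises receptor signals, rose with a log2 change of 1.56 ± 0.25 (347 ± 43.1 against 103 ± 17.6 CPM; edgeR adjusted p = 3.0e-05).

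In receptor and recombination genes the changes were mixed. Trac had 403, 283 and 283 CPM in resting cells of 81, 84 and 88 weeks, against 76.7, 79.3 and 85.2 CPM in dividing cells. Every resting set was above every dividing set, and the log2 change was 1.74 ± 0.27 (edgeR adjusted p = 1.5e-05). Trdc had 50.3, 51.5 and 43.9 CPM in resting cells, against 131, 259 and 220 CPM in dividing cells (log2 change -2.35 ± 0.28; edgeR adjusted p = 2.8e-07). Trdc thus fell in all 3 sets. At 81 weeks Trac rested on 8 UMIs in resting and 7 in dividing cells, and Trdc on 1 and 12. Under 10% mitochondrial UMIs, where 54 and 10 members remained at 84 and 88 weeks, neither Trac (1.59) nor Trdc (-1.85) passed. Of 9 receptor chain genes tested, 1 was higher and 4 were lower, beside 6.77% and 14.3% of all genes. Trbc1 (2492 and 2215 CPM in resting and dividing cells) and Trbc2 (3587 and 2322 CPM) did not pass (log2 change 0.08 and 0.39; edgeR adjusted p = 0.85 and 0.21).

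Of 12 recombination genes tested, 1 was higher and 2 were lower. These counts are close to the shares over all genes, 6.77% and 14.3%. Dclre1c, the nuclease Artemis, was higher (log2 change 1.03 ± 0.29; edgeR adjusted p = 0.0076), but not without the 88-week set (0.93) or with strong hashtags (1.03; edgeR adjusted p = 0.16). Hmgb2, a DNA-bending protein that is also high in dividing cells, had 0, 253 and 263 CPM in resting cells of 81, 84 and 88 weeks, against 7462, 5589 and 6335 CPM in dividing cells (log2 change -4.93 ± 0.38; edgeR adjusted p = 2.6e-10). Hmgb1, which bends DNA for the recombinase, had 1711, 1490 and 1503 CPM in resting cells, against 4613, 4395 and 4962 CPM in dividing cells, and was not called without the 88-week set (-1.80). Rag2 averaged 171 ± 23.4 CPM in resting cells and 113 ± 8.79 CPM in dividing cells (log2 change 0.60; edgeR adjusted p = 0.056), and Dntt 1063 ± 271 and 698 ± 29.5 CPM (0.34; edgeR adjusted p = 0.29), so neither passed.

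**Figure D3:**
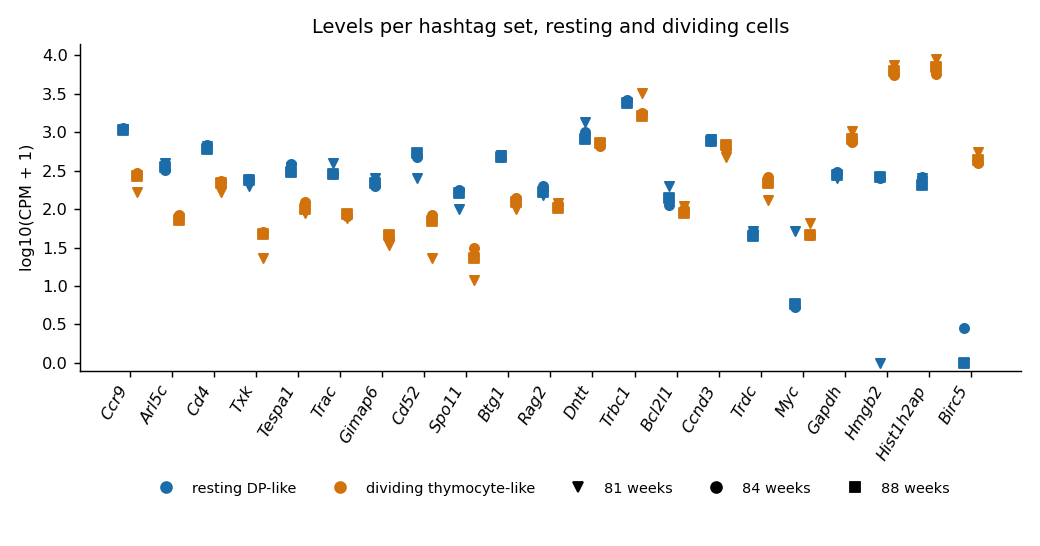
Level of each gene as log10(CPM + 1) in resting DP-like (left) and dividing thymocyte-like cells (right of each gene) of each hashtag set. Ccr9, Cd4, Txk and Trac are higher in every resting set, and Trdc, Gapdh and Hist1h2ap lower.

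Selection genes were sparse in resting cells. Of 10 tested, 3 were higher, beside 6.77% of all genes. Cd5, which dampens receptor signals, had 201, 77.8 and 63.3 CPM in resting cells of 81, 84 and 88 weeks, against 32.9, 32.0 and 25.6 CPM in dividing cells (log2 change 1.29; edgeR adjusted p = 0.0029), but not without the 84-week set (1.49). Cd69 had 50.3, 26.4 and 4.87 CPM in resting cells, against 10.96, 6.50 and 4.26 CPM in dividing cells, which are 1, 43 and 2 UMIs against 1, 25 and 4. Its log2 change was 1.63 ± 0.59 (edgeR adjusted p = 0.039), 0.67 without the 84-week set and 1.96 without the 88-week set, neither of which passed. Of 14 tested genes of maturation and exit 4 were higher, beside 6.77% of all genes. Among them were the GTPase gene Gimap6 (222 ± 27.5 against 39.7 ± 6.14 CPM; log2 change 2.22 ± 0.25; edgeR adjusted p = 1.2e-07) and Slfn2 (157 ± 40.4 against 36.3 ± 5.90 CPM; log2 change 1.79 ± 0.25). Slfn2 did not pass under 10% mitochondrial UMIs (1.41; edgeR adjusted p = 0.12).

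Of 10 survival genes 1 was higher and 1 lower, beside 6.77% and 14.3% of all genes. Fas, a death receptor, had 119 ± 29.0 CPM in resting cells and 53.3 ± 20.3 CPM in dividing cells (log2 change 1.20; edgeR adjusted p = 0.0017), but not without the 84-week set (1.02) or with strong hashtags (1.09). Bcl2l1, the survival gene of DP cells, had 150 ± 45.8 and 99.3 ± 10.6 CPM (0.31; edgeR adjusted p = 0.33). Of 15 cell cycle regulators 2 were higher and 7 lower, beside 6.77% and 14.3% of all genes. These genes vary with the cycle, so the counts partly describe the limit on cycle genes. The antiproliferative genes Btg1 (485 ± 15.7 against 119 ± 19.9 CPM; log2 change 1.82 ± 0.27) and Btg2 (692 ± 149 against 237 ± 74.6 CPM; log2 change 1.23 ± 0.25) were higher, but Btg2 did not pass under 10% mitochondrial UMIs (0.97) or with strong hashtags (1.07). Ccnd3, a cyclin of DP expansion, did not pass (784 ± 18.6 against 584 ± 103 CPM). The S phase (17 of 17), G2/M (17 of 17) and histone (36 of 39) lists were lower, which describes the limit on cycle genes and is no result. Of 11 genes of MHC class I and interferon none was higher or lower, beside 6.77% and 14.3% of all genes. Of 6 dissociation stress genes 1 was lower, which is near the 14.3% of all genes. It was Hsp90aa1 (299 ± 158 against 1038 ± 174 CPM, log2 change -1.74 ± 0.29), which did not pass under 10% mitochondrial UMIs (-0.61, edgeR adjusted p = 0.44). Of 16 genes of nutrient uptake, glycolysis and growth 4 were lower, beside 14.3% of all genes. Gapdh had a log2 change of -1.66 ± 0.27 (276 ± 24.4 against 868 ± 153 CPM), but did not pass under 10% mitochondrial UMIs (-1.18). Ncl (-1.33) and Npm1 (-1.17) were also lower, and neither passed without the 88-week set (-1.46 and -1.17), under 10% mitochondrial UMIs (-1.07 and -0.73) or after thinning (-0.93 and -0.75).

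The rule for named genes gave 8 genes with the largest rises over all genes. Gm15340 had 352, 207 and 192 CPM in resting cells of 81, 84 and 88 weeks, against 10.96, 24.4 and 13.8 CPM in dividing cells. Cd52, a surface glycoprotein gene, had 252, 477 and 529 CPM, against 21.9, 84.0 and 69.2 CPM. Spo11, the enzyme of meiotic DNA breaks, had 101, 175 and 163 CPM, against 10.96, 30.4 and 22.4 CPM. In all 3 genes every resting set was above every dividing set. The 81-week values of Gm15340, Cd52 and Spo11 were only 7, 5 and 2 UMIs in resting cells, against 1, 2 and 1 in dividing cells. Gm26822 (3.36), Tcp11l2 (2.97), Gm38405 (2.74), Gm40841 (2.71) and 5830428M24Rik (2.59) completed the list. These 5 had too few UMIs to be fitted without the 84-week set, and Gm26822 did not pass without the 88-week set (3.00). Of the largest falls, Esco2, a cohesin acetyltransferase of S phase, had 0 UMIs in resting and 1201 in dividing cells. That is at least 169-fold lower with 3 UMIs over the resting sets as the floor. This fall too describes the limit on cycle genes and is no result. Esco2 did not pass in DESeq2 (adjusted p = 0.076).

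The Rag1-negative T cells reached 5 cells in the 84- and 88-week sets only (18 and 7 cells; 101830 and 35274 UMIs). Against them 178 genes were higher (3.39%) and 263 lower (5.00%) of 5256 tested, 8.39% either way, with a median log2 change of 0.09 over all genes. Without the 81-, 84- or 88-week set 284, 59 or 55 were higher and 224, 63 or 71 lower. Of 12 recombination genes 4 were higher and 0 lower, while of 10 selection genes 0 were higher and 6 lower, and of 11 maturation genes 0 were higher and 7 lower. Genes that vary with Rag1 or with Ccr7, Il7r, Klf2 and S1pr1 are not independent of how the classes were cut. These counts therefore partly describe those limits. Arl5c had been given as a marker, so its values are a description. It had 682 UMIs in the resting sums and 0 in those of Rag1-negative T cells, at least 15.1-fold higher with the floor of 3 UMIs over the group. A Rag1-negative T cell with more than 1 hashtag, outside these sums, had 2. Dntt had 1358, 1004 and 826 CPM in resting cells of 81, 84 and 88 weeks, against 128 and 56.7 CPM at 84 and 88 weeks (log2 change 2.91 ± 0.39; edgeR adjusted p = 1.6e-05). Slc7a11, a cystine transporter gene, was at least 10.5-fold higher (472 against 0 UMIs). Xrcc6, which encodes the Ku70 end-joining protein, had 594 against 2 UMIs, a ratio of 19.7 (5.44 to 163), and did not pass under 10% mitochondrial UMIs (log2 change 3.85; edgeR adjusted p = 0.10). Themis, a DP signalling adaptor, averaged 1048 ± 42.3 CPM in resting and 159 ± 24.8 CPM in Rag1-negative T cells (SD, n = 3 and 2; log2 change 2.50 ± 0.34; edgeR adjusted p = 2.1e-05), but did not pass without the 88-week set (2.31).

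Other genes in this comparison were lower in resting cells. Bcl2, which protects selected T cells from death, had 0, 36.2 and 21.9 CPM in resting cells, against 570 and 595 CPM in Rag1-negative T cells (log2 change -4.47 ± 0.34; edgeR adjusted p = 3.1e-09). It passed with each set left out. Gimap3 (log2 change -6.37 ± 0.83) and Bach2 (-4.62 ± 0.93) were also lower. Without the 84-week set neither had enough UMIs to be fitted, nor had Bach2 without the 88-week set. B2m, the light chain of MHC class I, had 390 ± 106 CPM in resting and 1370 ± 173 CPM in Rag1-negative T cells (log2 change -2.20 ± 0.30), but did not pass under 10% mitochondrial UMIs (-1.55) or against the 7 cells left at 84 weeks without NK or gamma-delta markers (-1.16). Itm2a (-4.05), Cd69 (-3.15) and Gata3 (-2.21) fell, but none of them passed with strong hashtags (-2.21, -1.74 and -1.02; edgeR adjusted p = 0.19, 0.31 and 0.57). Itm2a also did not pass under 10% mitochondrial UMIs (-2.33) or without the 84-week set (-4.27), Cd69 without either set (-4.89 and -2.38), or Gata3 without the 88-week set (-1.68). Klrk1, an NK receptor gene, had 0 UMIs in resting and 21 in Rag1-negative T cells, and the gamma chain gene Tcrg-C2 7 and 20. Removing cells with such markers left 7 and 4 cells, and the set of 4 was under the limit of 5. The Rag1-negative class was then 1 sum of 32013 UMIs, assumed to vary like the other classes, with 74 genes higher and 20 lower.

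**Figure D4:**
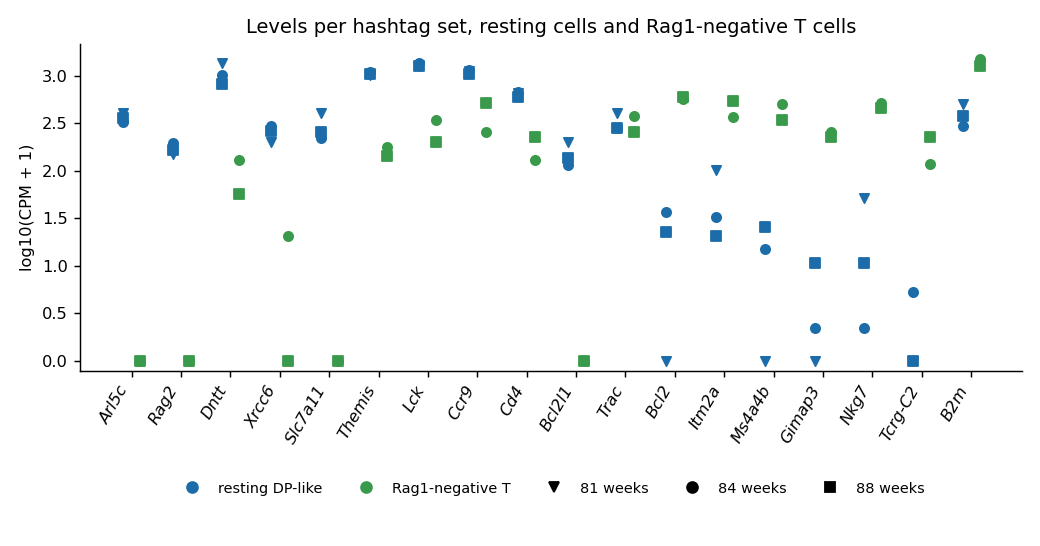
Level of each gene as log10(CPM + 1) in resting DP-like cells (left) and Rag1-negative T cells (right of each gene) of each hashtag set; the 81-week set has no Rag1-negative T cells. Arl5c, Dntt and Themis are higher and Bcl2, Gimap3 and B2m lower in every resting set that has both classes.

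Members were re-clustered on variable genes without those of the limits, and the sub-clusters are called by number. Sub-clusters 0 (350 cells) and 1 (366 cells) held most members. Sub-cluster 0 was led by Scgb1a1 and Snhg1 (460 and 319 CPM, against 168 and 123 CPM in the other members) and sub-cluster 1 by Zbtb37 and Pag1 (101 and 304 CPM, against 38.8 and 141 CPM). Scgb1a1 was found in 51.4% of the cells of sub-cluster 0 and in 38.4% of the other members, so it was not confined to sub-cluster 0. The source of Scgb1a1 was not tested. Sub-cluster 2 (32 cells) was led by Hivep3, Cd5, Egr1, Itm2a, Tox and Ikzf2. Its sum had 915 CPM of Tox, 672 of Cd5, 636 of Trac and of Cd28, 286 of Egr1 and 150 of Cd69. Sub-clusters 0 and 1 had 120 and 132 CPM of Tox and 6.8 and 16.6 CPM of Cd69. Bcl2 was 193 CPM in sub-cluster 2, against 21.4, 20.1 and 84.2 CPM in sub-clusters 0, 1 and 3. Rag1 was 1644 CPM in sub-cluster 2, against 2595 and 3632 CPM in sub-clusters 0 and 1. These genes include those that rise on selection. Of the 32 cells, 17 carried hashtag 2, 1 hashtag 3, 1 hashtag 1 and 13 more than 1, beside 68 of the 790 members in all. Whether pairs of cells contributed was not tested. Leading genes are a description, since the sub-clusters were made from them.

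Sub-cluster 3 (42 cells) was led by Fabp5, Cd74, Krt18, H2-Ab1 and Krt8, which mark epithelial and antigen-presenting cells and not DP cells. It contained the 3 doublet calls, and 12 cells with more than 1 hashtag. Few cells held its UMIs. A member with hashtag 3, the largest of all with 35266 UMIs, had 940 UMIs of thymic epithelium markers, among them 467 of Ccl25, 202 of Prss16 and 98 of Psmb11, with 0 of Cd4 and 2 of Rag1. The next largest, with more than 1 hashtag, had 301. At least 10 UMIs of Ccl25, Prss16 and Psmb11 together were found in 2 of 790 resting, 4 of 771 dividing, 0 of 1140 endothelial-like and 0 of 3654 smooth muscle-like cells. In all, 10 members had at least 10 UMIs of a marker list of thymic epithelium, dendritic cells, macrophages or B cells, 5 of them with more than 1 hashtag. The member with 940 UMIs of thymic epithelium markers is part of the 88-week set, which has 410430 UMIs in all. With it, summed thymic epithelium markers were 2332 CPM in members of 88 weeks and 62.5 CPM in those of 84 weeks. Their part in the results was not tested, but without sub-cluster 3 the counts against dividing cells were 346 higher and 749 lower.

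**Figure D5:**
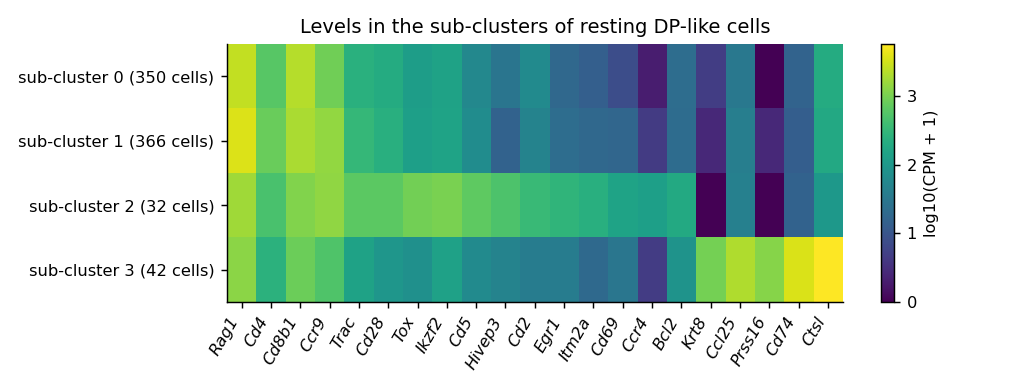
Colour gives log10(CPM + 1) of each gene in the summed UMIs of the 4 sub-clusters of members. Sub-cluster 2 is bright for Tox, Cd5, Cd28 and Egr1, and sub-cluster 3 for Krt8, Ccl25, Cd74 and Ctsl.

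Members of 88 and 84 weeks were set side by side without a test, as 1 animal stands for each age. Over genes with at least 50 CPM in either set, 53 of 3476 were at least 2-fold higher (1.52%) and 6 lower (0.173%) at 88 weeks, on a scale of CPM plus 10. Tbata (1074 against 7.97 CPM), Fabp5, Prss16, Krt18 and Ccl25 led the higher genes. The member with 35266 UMIs held 202 of the 202 Prss16 and 467 of the 480 Ccl25 UMIs of 88 weeks. These values are therefore not a level of the 88-week members in general. Sub-cluster 3 held 2 members of hashtag 3 and 21 of hashtag 2. Without sub-cluster 3 only 3 of 3352 genes were higher (0.0895%) and 7 lower (0.209%). Cd4 was then 678 CPM (596 to 769) at 88 weeks and 701 CPM (660 to 745) at 84 weeks, and Ccr9 1185 (1076 to 1303) and 1177 (1123 to 1232) CPM. Dntt was 933 (836 to 1038) and 1037 (986 to 1089) CPM. These Poisson intervals cover counting error only. Cd69 was 5.54 CPM (0.671 to 20.01) at 88 weeks and 23.7 CPM (16.6 to 32.8) at 84 weeks, and Egr1 13.8 (4.50 to 32.3) and 40.8 (31.2 to 52.2) CPM. The 2 genes lead or mark sub-cluster 2, which held 1 cell of hashtag 3 and 17 of hashtag 2.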

How the data were processed

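Per the file headers, the authors made the deposited raw UMI counts with Cell Ranger 6.0.1. Per the submitters' processing notes mm10 and Seurat 4.0.5 were also used. Counts cover 32285 genes and 3 hashtags in 26916 barcodes (142108011 UMIs, median 2975), and all barcodes are distinct. Hashtags were called with HTODemux (Seurat 5.3.0, quantile 0.99; cutoffs 129, 765 and 266 UMIs), and doublets with Scrublet (scanpy 1.11.5). UMIs were summed per hashtag and class of at least 5 cells. edgeR 4.0.16 (TMM, its low-count filter, Benjamini-Hochberg adjustment) was fitted on 3 classes with the hashtag as a block, because classes of 1 hashtag come from the same animal. On simulated data it recovered 85% and 98% of genes with true log2 changes of 1.5 and 2 against dividing cells. Against Rag1-negative T cells it recovered 37% and 54%. The counts of calls in the comparisons are therefore not alike in power. The members and lists were chosen with earlier results of these data known. Named genes were a fixed set plus, per list, up to 3 called genes each way with the largest change, and 8 each way over all genes, with the same sign in every set and at least 50 CPM in the higher class. Floors were 3 UMIs. No deposited cell annotation was used. Some genes that this rule names are not reported here.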

Additional observations from a re-analysis of the deposited data

Results flagged for a closer look

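The 790 members are fewer than the 1993 barcodes that met every limit but had 15% or more mitochondrial UMIs. The median was 2914.5 UMIs in members and 2129 in those barcodes. Summed levels were 647 CPM of Cd4 in members and 632 in those barcodes, 1089 and 1126 CPM of Ccr9, and 325 and 303 CPM of Arl5c.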

How the results depend on the processing

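The number of members was 86 under 10% mitochondrial UMIs and 2783 with no such limit, an alternative chosen after seeing the data, and 659 to 824 under the other limits tried. The 84-week share was 11.5% when hashtags had to reach 2 times their cutoff. Against dividing cells, higher and lower calls were 29 and 148 under 10% mitochondrial UMIs, 131 and 398 with strong hashtags and 156 and 301 after thinning, and lower calls were 1192 without the low-count filter. Leaving out 1 hashtag set gave 176 to 477 higher and 383 to 949 lower. Against Rag1-negative T cells, higher and lower calls were 14 and 41 under 10% mitochondrial UMIs, 76 and 86 with strong hashtags and 61 and 42 after thinning. Higher calls were 94 with DESeq2 and 300 without the low-count filter, and lower calls 174 with only the classes compared. Leaving out 1 set gave 55 to 284 higher and 63 to 224 lower. Without cells with NK or gamma-delta markers, chosen after seeing the data, 74 were higher and 20 lower against 1 sum of 7 cells. The log2 change of Tcrg-C2 reversed to 4.79 (edgeR adjusted p = 0.86), which the removal of cells with gamma-delta markers set beforehand. For the other changes the cause was not tested, but fewer cells, sets or genes entered most of these fits. Without the replicate block the counts were 389 higher and 767 lower against dividing cells and 202 and 291 against Rag1-negative T cells. With 7 members at 81 weeks, depth limits every statement on that set. Of 62 named genes against dividing cells, fewer could be fitted under some settings. None reversed where it passed in the main fit or in the other setting. Sign changes of genes that passed in neither fit were not counted. Named genes outside the fixed set had been chosen for the same sign in every set. The totals below include named genes that did not pass in the main fit, such as Rag2 against dividing cells. No longer past the threshold were 9 of 33 under 10% mitochondrial UMIs, 7 of 61 with strong hashtags, 9 of 62 with DESeq2, 4 of 39 after thinning, and 6 of 47 and 6 of 53 without the 84- and 88-week sets. Against Rag1-negative T cells these were 24 of 35, 24 of 61, 12 of 63, 15 of 41, 32 of 48 and 26 of 53, and 28 of 50 without cells with NK or gamma-delta markers.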
